A study of Mus musculus with 8 samples.

Results

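The sarcomeric myosins were read in 10 genes, 6 heavy chains and 4 light chains, chosen by gene symbol from 52636 rows of an expression table of sorted mouse muscle stem cells. They comprise 5 fast genes (Myh1, Myh2, Myh4, Myl1 and Mylpf), 3 slow genes (Myh7, Myl2 and Myl3) and 2 developmental heavy chains (Myh3 and Myh8). These were satellite cells (SCs), from which muscle fibres regenerate, sorted from skeletal muscle of male C57B/6J mice aged 10 weeks when training began. The sorting method of the study names the tibialis anterior, while its sequencing legend and the labels name skeletal muscle only. In the exercise group the mice ran on a treadmill for 4 weeks, on 4 days per week for 30 min at 12 m/min with an incline of 5°, and in the control group they stayed sedentary. Each group had 4 libraries of about 800 cells, gated as CD34+ and integrin α7+ and as CD45-, CD11b-, CD31- and Sca1-. No transgene or deletion was part of either group. The study counts its sequencing replicates as mice, while the labels tie no library to a mouse and some libraries were closely related, so the p-values are read as measuring the spread between these libraries.

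Myosin is the motor of the thick filament. A heavy chain carries the ATPase head and the rod, and each head binds an essential light chain (Myl1 in fast fibres, Myl3 in slow fibres) and a regulatory light chain (Mylpf in fast fibres, Myl2 in slow fibres). Adult mouse limb muscle uses heavy chain IIB (Myh4), IIX (Myh1), IIA (Myh2) and the slow type I (Myh7), while embryonic Myh3 and perinatal Myh8 mark developing or regenerating fibres. Quiescent SCs contain no sarcomeres, and the tibialis anterior is a predominantly fast muscle. In bulk libraries of this kind, fewer cells of a type and less RNA per cell cannot be told apart.

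The heavy chain genes are close copies, and the coding sequence shows how far a read can tell them apart. Relative to Myh4, the coding bases were identical at 90.2% of aligned positions in Myh1, 88.2% in Myh2, 87.9% in Myh8, 80.3% in Myh3 and 77.5% in Myh7. Of the 5867 stretches of 150 bases, the read length, in the Myh4 transcript, 0.256% were found letter for letter in Myh1 and 6.07% with at most 2 mismatches. Of all 150-base stretches, 90.6% in Myh4, 84.6% in Myh1, 85.6% in Myh2 and 100% in Myh7 lay more than 2 mismatches from every other heavy chain of the 6. These stretches were taken from the spliced transcript, and in Myh4 16 of 39 exons reach 150 bases. Stretches across exon junctions are not reads that Bowtie alone would align, so the shares among alignable reads may differ. The lines that follow show the 90 coding bases at which Myh4 differed most from Myh1 and Myh2, with capitals at positions where the 3 genes were not identical. They lie on the plus strand of GRCm38, in exon 20 of 39 of Myh4 at chr11:67250501-67250590, exon 21 of 40 of Myh1 at chr11:67211103-67211192 and exon 21 of 40 of Myh2 at chr11:67185382-67185471.
Myh4: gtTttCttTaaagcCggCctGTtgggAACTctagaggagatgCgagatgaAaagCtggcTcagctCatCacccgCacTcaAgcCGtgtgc
Myh1: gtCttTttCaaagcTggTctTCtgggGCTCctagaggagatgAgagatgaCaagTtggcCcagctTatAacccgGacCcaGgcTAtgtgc
Myh2: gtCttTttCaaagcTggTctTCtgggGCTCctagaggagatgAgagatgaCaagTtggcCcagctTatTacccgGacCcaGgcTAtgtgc
Myh1 and Myh2 each differed from Myh4 at 22 of these 90 bases. The opposite case is a stretch of 90 bases that Myh4 (exon 15, chr11:67248446-67248535) and Myh1 (exon 16, chr11:67208853-67208942) share without any difference.
Myh4 and Myh1: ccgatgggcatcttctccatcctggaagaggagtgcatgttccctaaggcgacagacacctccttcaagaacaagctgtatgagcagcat
The longest run that the coding sequences of both share is 161 bases, so few reads of 150 bases fall wholly within identical sequence, and low Myh1 values beside high Myh4 values are uncertain to the extent that reads were shared between them. No 150-base stretch of Myl1 or Mylpf came within 2 mismatches of another of the 4 light chains.

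Upstream of the RefSeq starts (GRCm38.p6, all 10 genes matched) the fast heavy chains differed in the muscle-type motifs they carried. The 250 bases before each start were searched on both strands for the E-box CANNTG (in 66.2% of 32536 mouse promoter windows of this length), the MEF2 consensus (2.89%), the CArG box (1.48%) and TATAAA (12.3%). Myh4 held 2 E-boxes, 1 MEF2 match, 1 CArG match and 3 TATAAA matches, of which 1 overlaps the MEF2 match. Myh1 and Myh8 each held 1 MEF2 match, with the same 10 letters as in Myh4, also overlapping a TATAAA match, while Myh2 held none of the 4 motifs, Mylpf held 1 E-box, and Myl1 held 1 E-box and 1 TATAAA match. The windows of Myh4, Myh1 and Myh8 are printed because these genes share that motif while Myh4 had the highest level of the cluster and Myh8 had no reads. Capitals mark the E-box, MEF2 and CArG matches, and for Myh1 the exon is left out, so that 200 bases are given. The spans are chr11:67237562-67237811 for Myh4, chr11:67199852-67200051 for Myh1 and chr11:67276874-67277123 for Myh8, all on the plus strand.
Myh4: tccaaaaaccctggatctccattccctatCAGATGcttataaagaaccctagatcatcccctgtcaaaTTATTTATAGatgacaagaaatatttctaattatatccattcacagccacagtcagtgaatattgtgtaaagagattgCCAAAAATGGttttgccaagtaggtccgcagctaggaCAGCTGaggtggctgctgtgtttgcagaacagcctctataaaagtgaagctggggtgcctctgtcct
Myh1: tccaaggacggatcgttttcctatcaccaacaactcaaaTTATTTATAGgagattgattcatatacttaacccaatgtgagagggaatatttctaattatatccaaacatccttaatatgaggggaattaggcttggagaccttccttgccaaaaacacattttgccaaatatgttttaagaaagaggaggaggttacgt
Myh8: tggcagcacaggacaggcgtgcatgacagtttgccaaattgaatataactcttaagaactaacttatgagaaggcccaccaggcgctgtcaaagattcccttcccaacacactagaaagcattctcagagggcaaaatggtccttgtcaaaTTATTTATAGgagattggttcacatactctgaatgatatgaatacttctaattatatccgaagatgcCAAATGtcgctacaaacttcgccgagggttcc
The match is a description of letters and was not tested for binding.

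Several libraries stood apart before any myosin was considered. Reads on genes numbered 2339966 to 3013354 in control and 1011737 to 1200221 in exercise, and mitochondrial genes took 2.09% to 15.3% of them in control, 7.56% and 7.85% in exercise 2 and 1, but 50.2% and 68.7% in exercise 3 and 4. Counts of exercise 1 and 2 differed with a chi-square of 3.86 for each degree of freedom, against 82.6 to 711 for the other pairs within a group. Genes found only in control 1 or only in control 3 reappeared in control 4 at 0.281 and 0.714 of their read share, which add up to 0.996, and exercise 3 held 0.299 of exercise 1 and 0.677 of exercise 4 in the same sense. Whether the 8 libraries are separate samples was not tested beyond these values, so the calls for Myl1 and Myh1 are also given with exercise 1 and 2 averaged and control 4 and exercise 3 left out, a fit on 5 samples in which no gene passed. The SC genes Pax7 and Itga7, and Cdh15 and Calcr, were listed at 0 in all 8 libraries, although integrin α7 is the product of Itga7 and was part of the gate.

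Fast chains made up nearly all myosin expression, and most of it came from 3 genes. FPKM, the fragments per kilobase of gene scaled to library size and so a level per length, were high for Myh4, Mylpf and, in control, Myl1, while Myh1 stayed under 16 and the remaining 6 genes had at most 1 read in any library. All 10 genes together took 7.41%, 3.08%, 4.48% and 5.34% of the reads in control and 2.21%, 2.32%, 2.01% and 1.83% in exercise, with no overlap between groups. Of the reads outside mitochondrial genes they took 3.47% to 7.57% in control and 2.40%, 2.51%, 4.03% and 5.86% in exercise, and there the groups overlapped. By limma on log2(FPKM + 1) across the 4328 genes that averaged 1 FPKM or more, 4 of the 10 could be tested, and 2 of them (Myl1 and Myh1) were called lower at a Benjamini-Hochberg adjusted p under 0.05. In the same fit 26.8% of all genes were called lower and 8.78% higher, and none of the members was called higher. The same 2 members had all exercise values below all control values, as did 24.0% of all genes tested. The median log2 fold change of the 4 tested members was -1.65, beside -1.42 over all genes tested. Of those genes 1517 were at 0 in a whole group, and with these set to the 3 reads that a count of 0 allows, the median of all genes was -0.78.

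**Figure D1:**
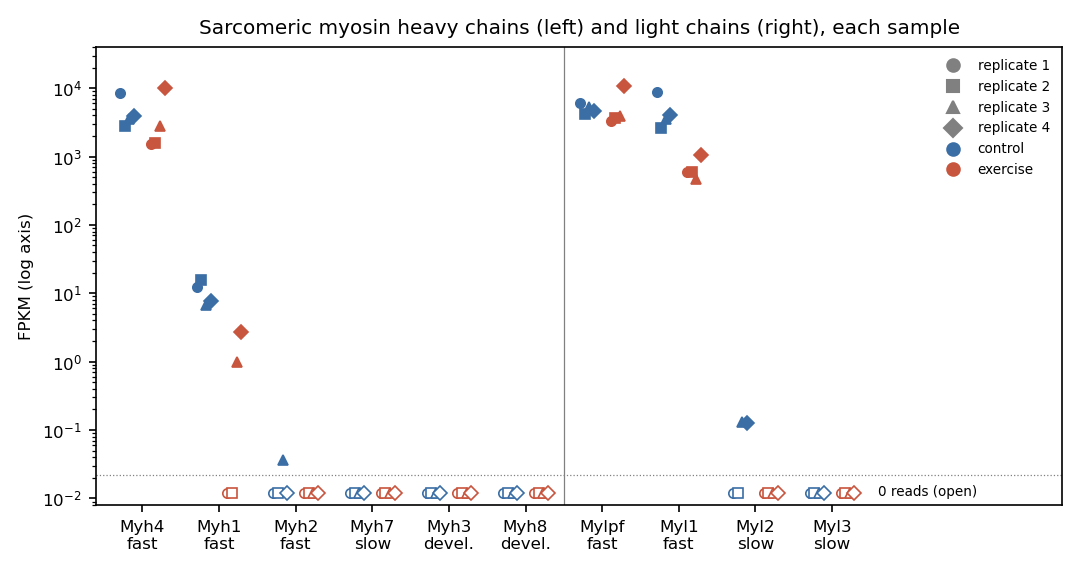
FPKM (log axis) of each of the 10 myosin genes in each library, control in blue and exercise in red, with the marker shape giving the replicate number and open markers at the bottom standing for 0 reads. Myh4, Mylpf and Myl1 lie between 474 and 10599 FPKM, Myh1 lies below 16, and the slow and developmental genes are at or next to 0.

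Myh4, the IIB heavy chain and the fastest of the limb isoforms, was the main heavy chain in every library. The gene lies on the plus strand at chr11:67238029-67260446 (mm10). Its level was 8460, 2787, 3588 and 3977 FPKM in control and 1531, 1602, 2769 and 9992 FPKM in exercise. Exercise 1, 2 and 3 were below every control library, exercise 3 by a small margin, and exercise 4 was above every one, so the groups overlapped. The means of 4703 ± 2553 FPKM in control and 3974 ± 4052 FPKM in exercise (SD, n = 4) differed by a log2 fold change of -0.58 (SE 0.66), with an adjusted p of 0.473 in limma and p = 0.486 in an exact two-sided permutation test. The interval that this error leaves is wide, and a difference in Myh4 was not detectable on the FPKM scale.

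The picture for Myh4 depended on the denominator. As a share of all reads on genes it was 4.99%, 1.93%, 2.80% and 3.42% in control and 1.46%, 1.52%, 1.54% and 1.50% in exercise. On that scale all exercise libraries were below all control libraries, with means of 3.28% ± 1.29 and 1.50% ± 0.0358 (SD, n = 4), a 2.18-fold difference. Of the reads outside mitochondrial genes, Myh4 took 5.10%, 2.17%, 3.30% and 3.88% in control and 1.58%, 1.64%, 3.09% and 4.79% in exercise. The groups overlapped again, since the exercise 3 and 4 libraries with the high mitochondrial shares moved into the control range. Scaled to the read total, limma gave a log2 fold change of -1.04 with an adjusted p of 0.0770, a fit in which the median of all genes was -1.57. Without exercise 4 the FPKM fold change was -1.18 with an adjusted p of 0.0726.

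Mylpf, the fast regulatory light chain that is phosphorylated by myosin light chain kinase, had the steadiest level of the 3 abundant genes in control. It lies on the plus strand at chr7:127208890-127214298 (mm10). Its level was 6149, 4185, 5298 and 4667 FPKM in control and 3342, 3612, 3857 and 10599 FPKM in exercise. As for Myh4, the first 3 exercise libraries were below all controls and exercise 4 was above them. The means of 5075 ± 849 and 5352 ± 3504 FPKM (SD, n = 4) gave a log2 fold change of -0.09 (SE 0.45), with an adjusted p of 0.873 in limma and p = 0.886 in an exact two-sided permutation test. The sign turned to 0.02 when FPKM was rescaled to reads outside mitochondrial genes, so no direction is given for Mylpf. Its share of all reads, 0.511% to 0.729% in control and 0.281% to 0.605% in exercise, overlapped as well.

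Myl1, the fast essential light chain, was lower in exercise in every library and on every scale. It lies on the minus strand at chr1:66924295-66945404 (mm10). Its level was 8720, 2649, 3532 and 4067 FPKM in control and 589, 598, 474 and 1046 FPKM in exercise. The highest exercise value was below the lowest control value. The means of 4742 ± 2716 and 677 ± 252 FPKM (SD, n = 4) stood in a ratio of 7.01, and the log2 fold change was -2.72 (SE 0.52) with an adjusted p of 0.00598 in limma. The p of 0.0286 in an exact two-sided permutation test is the smallest that 4 against 4 samples can give.

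The distance of Myl1 from the median gene depended on the processing. Its log2 fold change minus the median of all genes was -1.31 on the deposited scale, -2.37 after quantile normalization and -1.13 when scaled to reads outside mitochondrial genes. Lower fold changes were found in 21.03%, 11.1% and 24.4% of the genes tested. With a pseudocount of 0.1 the fold change of Myl1 stayed at -2.72 but the median was -2.59, which left a distance of -0.14 and 48.3% of genes with lower values. Myl1 reads were 41484, 16823, 28597 and 33611 in control and 2042, 1980, 1089 and 625 in exercise, or 0.631% to 1.77% and 0.0541% to 0.196% of all reads. Ranked by FPKM among all genes, Myl1 stood at 7, 25, 15 and 10 in control and at 70, 73, 99 and 96 in exercise, whereas Mylpf stood at 8 to 13 and at 12 to 20. Myl1 passed the threshold in 19 of 20 alternative settings. The exception was the fit on 5 samples, where the log2 fold change was -2.46 with an adjusted p of 0.440.

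Myh1, the IIX heavy chain that follows Myh4 in speed, was low throughout and lower in exercise. It lies next to Myh4 on the plus strand, at chr11:67200052-67224575 (mm10). Its level was 12.4, 15.5, 6.82 and 7.74 FPKM in control, from 181, 302, 169 and 196 reads. In exercise it was listed at 0 in exercise 1 and 2 and at 0.994 and 2.73 FPKM in exercise 3 and 4, from 7 and 5 reads. The groups did not overlap, and the means of 10.6 ± 4.08 and 0.931 ± 1.29 FPKM (SD, n = 4) gave a log2 fold change of -2.75 (SE 0.68) on the log2(FPKM + 1) scale, which understates the change of so low a gene. The adjusted p was 0.0174 in limma and the exact two-sided permutation p was 0.0286. The call was lost without exercise 1 (adjusted p = 0.0689), exercise 2 (0.0692) or exercise 3 (0.0548), and with exercise 1 and 2 averaged (0.0683). The log2 fold changes in these fits were -2.51, -2.51, -2.84 and -2.51. It was also lost in the fit on 5 samples (-2.64, adjusted p = 0.458) and after quantile normalization (log2 fold change -1.53, adjusted p = 0.170). The noncoding gene Myhas overlaps Myh1 on the other strand, so reads of the pair cannot be told apart where counting ignored strand.

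**Figure D2:**
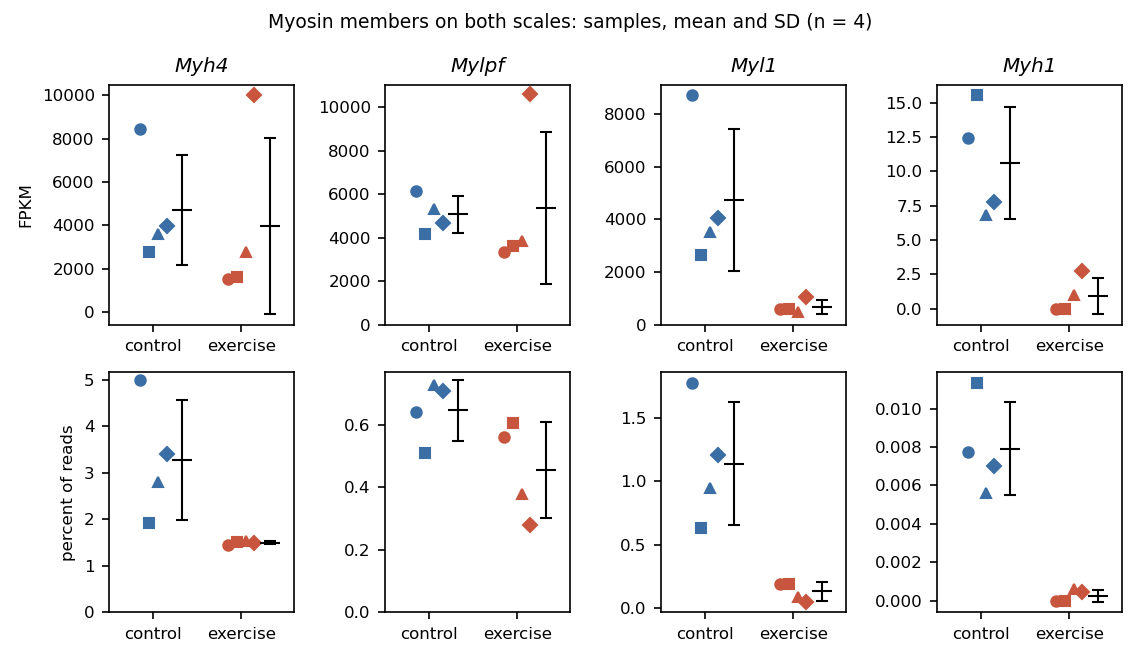
Myh4, Mylpf, Myl1 and Myh1 in each library (markers shaped by replicate number as circle, square, triangle and diamond for 1 to 4), with the mean and SD (n = 4), as FPKM in the upper row and as percent of reads on genes in the lower row. Exercise 4 is the highest library for Myh4 and Mylpf in FPKM but not in read share, and Myl1 and Myh1 are lower in all exercise libraries in both rows.

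Among the fast chains, Myl1 and Myh1 were lower relative to Myh4 in all exercise libraries than in any control library. In the limma fit the log2 fold change of Myh4 was -0.58, beside a median of -1.42 over all genes tested. A lower value than that of Myh4 was found in 62.6% of genes, so a fall relative to Myh4 is not particular to Myl1 and Myh1. The share of all genes whose ratio to Myh4 separated the groups was not computed. Ratios within a library do not depend on how libraries are scaled to each other, and they are described here without a test. Myl1 stood to Myh4 at 1.03, 0.950, 0.985 and 1.02 in control, so that both genes stood at nearly the same FPKM in each control library. In exercise the ratio was 0.385, 0.373, 0.171 and 0.105, all below control, with means of 0.997 ± 0.0371 and 0.258 ± 0.142 (SD, n = 4). Myl1 made up 58.6%, 38.8%, 40.0% and 46.6% of light chain FPKM in control and 15.0%, 14.2%, 10.9% and 8.98% in exercise, and Mylpf made up nearly all of the rest. The ratio of Mylpf to Myh4 ranged from 0.727 to 1.50 in control and from 1.06 to 2.25 in exercise, with overlap. The absolute size of these ratios depends on the gene lengths behind the FPKM, which for Myl1 was 2074 bases against 803 bases in its principal transcript. The fold between groups in a ratio of 1 gene to another does not depend on them. For the percentages of light chain FPKM the fold between groups depends on them too.

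Among heavy chains Myh4 held at least 99.4% of the FPKM in every library. For each 1000 Myh4 reads there were 1.55, 5.88, 2.01 and 2.06 Myh1 reads in control and 0, 0, 0.379 and 0.289 in exercise. Control 2 stood above the other control libraries in this ratio, and all exercise libraries were below all control libraries.

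**Figure D3:**
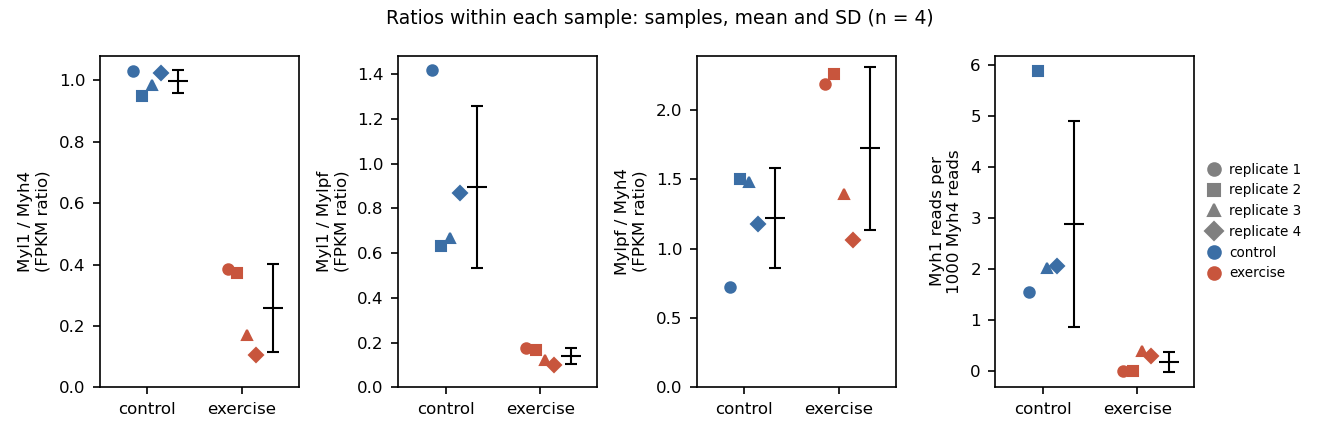
Ratios of myosin genes within each library, with the mean and SD (n = 4): Myl1 to Myh4, Myl1 to Mylpf and Mylpf to Myh4 as ratios of FPKM, and Myh1 reads per 1000 Myh4 reads. Myl1 to Myh4 was close to 1 in the 4 control libraries and at most 0.385 in exercise, while Mylpf to Myh4 overlapped between groups.

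Type IIA and slow myosins were at the limit of detection in both groups. Myh2, the IIA heavy chain, had 1 read in control 3 (0.0359 FPKM) and none in the other 7 libraries. Myl2, the slow regulatory light chain, had 1 read each in control 3 and control 4 (0.131 and 0.129 FPKM), and Myh7 and Myl3, the slow heavy and essential light chains, were listed at 0 in all libraries. A count of 0 allows up to 3 reads, which for Myh7 is 0.0877 to 1.21 FPKM depending on the library, or 0.00180% to 0.0137% of the Myh4 level. For Myl3 it is 0.368 to 5.09 FPKM, or 0.00422% to 0.0437% of the level of Myl1 and Mylpf together. These limits cover counting error only. Myh7 overlaps Mhrt and other noncoding genes, Myl2 overlaps Ccdc63 and Myl3 overlaps Pth1r, so reads that counting left out as shared would not be covered by them. Nor would reads across exon junctions, which Bowtie alone does not align, and exons of 150 bases or more number 16 of 41 in Myh7, 15 of 41 in Myh3 and 16 of 40 in Myh8, beside 16 of 39 in Myh4. The part of either in the zeros was not tested, and the coordinates of Myh7 in the file differ from the annotation used here. On this scale the limit in exercise was the looser because those libraries were shallower and were scaled up. A difference in these genes was therefore not detectable, and no fold change is given for them.

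Developmental myosins were absent from the counts. Myh3, the embryonic heavy chain, and Myh8, the perinatal one, were listed at 0 in all 8 libraries, with limits of 0.124 to 1.72 and 0.0640 to 0.884 FPKM (at most 0.0194% and 0.00997% of Myh4). Most of the 6 commitment genes gave low values as well. Myog, Mymk, Mymx and Myf6, which drive differentiation and fusion, were at 0 in all libraries, and Myod1 was at 0.826 and 0.944 FPKM in control 3 and 4 and at 0 elsewhere. Mef2c, a transcription factor that muscle fibres also use, was the exception and the 1 gene of the list tested, at 11.0 to 37.7 FPKM in control and 1.91 to 104 in exercise (log2 fold change -0.49, adjusted p = 0.741 in limma).

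The heavy chain cluster on chromosome 11 holds 5 of the 6 heavy chains in a row, Myh3, Myh2, Myh1, Myh4 and Myh8, with 3 noncoding genes on the opposite strand that were looked at after their values had been seen. The noncoding gene 2310065F04Rik lies between Myh3 and Myh2 and was at 6.58, 15.9, 9.75 and 6.97 FPKM in control and at 0 in all 4 exercise libraries (adjusted p = 0.00330 in limma). Myhas, which runs antisense from beside the Myh4 start into Myh1, was at 7.53, 0, 4.55 and 4.46 FPKM in control and at 0 in exercise (adjusted p = 0.0465 in limma), and that call held in 5 of 19 alternatives. The third, 9430073C21Rik, was at 0 in all libraries. Of all 4328 genes tested 26.8% were called lower, and 1517 were at 0 in a whole group. The median log2 fold change of 2310065F04Rik and Myhas was -2.68, beside -1.42 for all genes. With genes at 0 in a whole group set to 3 reads, these medians were -1.40 and -0.78. Apart from Myh4, no gene of the cluster reached 16 FPKM in any library.

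**Figure D4:**
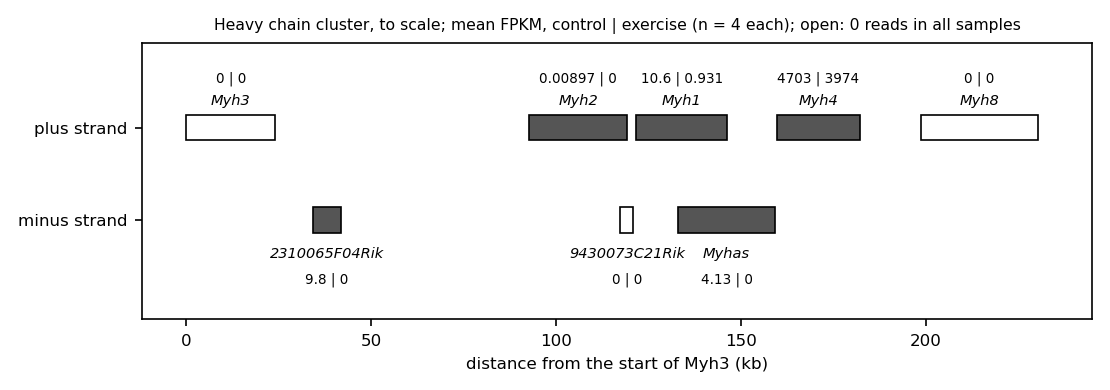
The heavy chain cluster drawn to scale by distance from the start of Myh3 (kb), coding genes on the plus strand above and noncoding genes on the minus strand below, with mean FPKM in control and exercise (n = 4 each) beside each gene. Filled boxes had a read in at least 1 library and open boxes had none, and Myh4 stands out with 4703 and 3974 FPKM.

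Partners of myosin in the thick filament were called at shares near those of all genes. Of 16 such genes, 13 were tested, 4 were called lower (26.8% of all genes tested were), 1 was called higher (8.78% of all were) and 8 passed no threshold, with a median log2 fold change of -1.62 beside -1.42 for all genes. With genes at 0 in a whole group set to 3 reads, these medians were -1.21 and -0.78. Smyd1, a methyltransferase needed for myosin assembly, was at 20.4, 303, 188 and 120 FPKM in control and at 0, 0.138, 0 and 0 in exercise (log2 fold change -6.74, adjusted p = 0.00104 in limma). Mybpc1, the slow-type myosin binding protein C, was at 97.6, 249.5, 162 and 124 FPKM in control and at 0, 0.138, 5.58 and 21.5 in exercise (log2 fold change -5.38, adjusted p = 0.00666). These 2 genes were each called in 19 of 20 alternatives. Mylk2, the kinase that phosphorylates the regulatory light chain in skeletal muscle, was at 105, 1.88, 1.22 and 19.6 FPKM in control and at 0 in exercise (adjusted p = 0.0436 in limma), a call that held in 11 of 20. Myom2, an M-band protein that links myosin filaments in fast fibres, was the 1 gene called higher, at 4.04, 0, 0 and 0.652 FPKM in control and 85.3, 86.6, 43.0 and 3.14 in exercise (log2 fold change 4.33, adjusted p = 0.0177). Its call held in 13 of 20 alternatives, and its groups overlapped, since exercise 4 was below control 1. The fourth gene called lower was Mylk4, also a kinase of this family, at 3.01 to 4.63 FPKM in control and at 0 in exercise.

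None of the other fast fibre genes passed the test. Of 7 such genes 6 were tested and 0 were called, with a median log2 fold change of -1.21. Over all genes tested 26.8% were called lower and 8.78% higher, and the median was -1.42, or -0.78 with genes at 0 in a whole group set to 3 reads, which left the median of the 6 at -1.21. With 6 genes the count says little. Tnni2, the inhibitory subunit of fast troponin, was at 3236, 1299, 1401 and 1558 FPKM in control and 468, 532, 1466 and 6738 in exercise, and Actn3, the Z-disc actinin of fast fibres, was at 4541 to 23094 FPKM in control and 301 to 48303 in exercise. Exercise 1 and 2 were below and exercise 4 above all control libraries for both. Pvalb, the calcium buffer of fast fibres, had another order, at 6065, 2146, 2243 and 2730 FPKM in control and 3920, 4181, 2252 and 1617 in exercise, with exercise 4 the lowest of the 8. Tnnc2 was listed at 0 in all libraries. Of 7 slow fibre genes 3 were at 0 throughout and 3 were tested, of which Atp2a2, the slow calcium pump that many other cells also use, was called lower (adjusted p = 0.0460), a call that held in 6 of 19 alternatives. Tnnc1, the troponin C of slow fibres and heart, had the highest mean level of that list, at 0 in all 4 control libraries and in exercise 1 and 2 and at 78.0 and 337 FPKM in exercise 3 and 4, and did not pass the test (adjusted p = 0.123).

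Other muscle and nonmuscle myosin chains, 16 genes, were looked at beside the members. Of 8 further sarcomeric myosins, 7 were at 0 in all libraries, and Myl10 was found in 2 control libraries (39.1 and 9.18 FPKM in control 1 and 4) without passing the test. Of 8 nonmuscle and smooth muscle genes 5 were tested, with 2 called lower and 1 higher, beside 26.8% and 8.78% of all genes. The nonmuscle regulatory light chains Myl12a and Myl12b were called lower, Myl12a from 141 to 600 FPKM in control to 12.7 to 24.5 in exercise (log2 fold change -3.90, adjusted p = 0.00391 in limma). Myh11, the smooth muscle heavy chain, was at 0 in all 4 control libraries and at 70.1, 71.5, 35.6 and 3.14 FPKM in exercise (adjusted p = 0.00646 in limma). Exercise 4, the highest exercise library for Myh4, was the lowest for Myh11.

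Marker levels are given beside these results because fibre RNA and SC RNA cannot be separated in them. Over the 10 SC markers 4 genes were at 0 throughout and the summed level was 23.2 to 41.5 FPKM in control and 31.9 to 83.6 in exercise. Most of the exercise sum was Sdc4, at 30.0 to 76.1 FPKM, a surface proteoglycan that other cells also carry. Cd34, a marker of the gate, was at 0.1196 to 1.48 FPKM in control and 1.90 to 9.63 in exercise, higher in all exercise libraries on this scale but past no threshold (adjusted p = 0.0670 in limma). Chodl was called lower (adjusted p = 0.00881 in limma) and, like Vcam1, Fgfr4 and Myf5, which were each at 0 in 1 or 2 control libraries, was at 0 in all exercise libraries. Over the 9 markers of gated-out or other cells Ptprc, Itgam, Pecam1 and Cspg4 were at 0 throughout, 5 genes had reads, and the summed level was 10.2 to 146 FPKM in control and 4.37 to 17.0 in exercise. Over the fast fibre partners the sum was 8174 to 34380 and 4807 to 58352 FPKM. The part of other cells or of fibre fragments in the myosin values was not tested.

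The genes whose log2 FPKM followed that of Myh4 most closely over the 8 libraries were Ndufv3 (Pearson r = 0.978), Clip4 (0.977), Akr1b3 (0.975), Tnni2 (0.973) and Myot (0.972). Mylpf followed it at 0.921 and Actn3 at 0.920, while Myl1 and Myh1 did so at 0.567 and 0.589. For Myl1, looked at after its values were known, the closest genes were Cdc16 (0.993), Selenow (0.991), Lgalsl (0.987), Uchl3 (0.986) and Chchd1 (0.984), and Myh1 followed it at 0.894 and Mylpf at 0.342. These values describe 8 libraries that share their depth and group structure, and carry no test. Myh7 had no value in any library, so its closest genes could not be named.

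**Figure D5:**
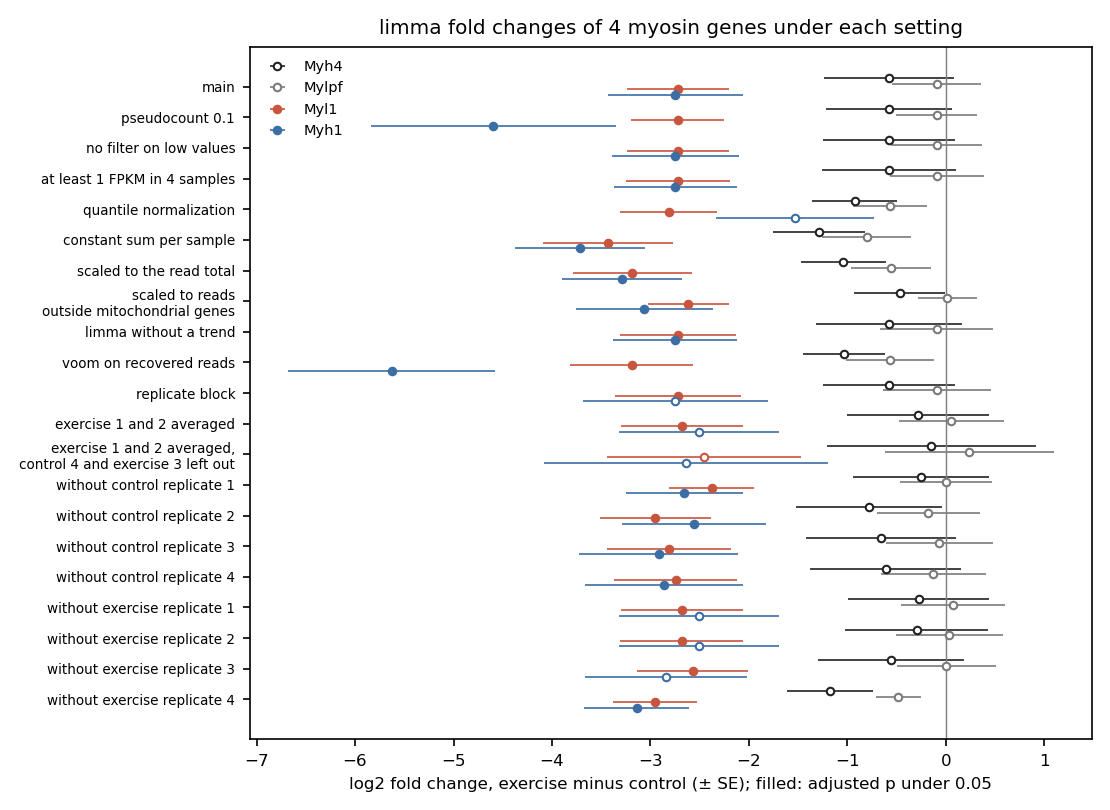
Log2 fold change (exercise minus control) with its SE for Myh4, Mylpf, Myl1 and Myh1 in the fit reported and in 20 alternatives, filled where the adjusted p was under 0.05. Myl1 lies between -3.43 and -2.38 and is filled in all but 1 alternative, Myh1 lies below 0 in all and is filled in 13, and Myh4 and Mylpf are never filled.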

How the data were processed

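The study sequenced the libraries as 150-bp paired reads. Its methods name Bowtie 0.12.9, Cufflinks 2.1.1 and HTSeq, and the submitters' notes name mm10. How reads across splice junctions or shared between paralogs were counted is not given in the sources used here. The deposited values are FPKM made by the authors. All of them are whole reads (100%, tolerance 0.001) scaled by size factors, so depth was recovered from them. FPKM of rows with 1 symbol were summed, and limma 3.58.1 (R 4.3.3; lmFit, eBayes with a trend) was fitted to log2(FPKM + 1) of the 4328 genes that averaged 1 FPKM or more, with Benjamini-Hochberg adjustment over all of them. Exact two-sided permutation tests used all 70 assignments. Genes named are the 10 members, up to 4 per list (called genes first, then by mean FPKM) and the 5 closest to Myh4 and Myl1, and genes named beyond that were chosen after their values were seen. The members and lists were chosen with earlier results of these data known. Annotation was GENCODE M21, in which 9 of 10 members have the coordinates of the file. The code of the fit was checked on simulated data with independent libraries and few genes changed. That check does not cover related libraries or a shift of the median gene, as found here. Alternatives are given at the end.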

Additional observations from a re-analysis of the deposited data

Results flagged for a closer look

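Of 24 groups of 4 libraries looked at for a library far from the others, 3 had one. A rate of 1 in 20 would give about 1.2, but that rate assumes independent values. Some libraries were closely related and the groups reuse the same libraries, so the 2 counts cannot be compared strictly. Exercise 4 was the highest exercise library for Myh4, at 9992 FPKM, with a gap of 0.854 of the group's range to the next library. It was also the highest for Mylpf, at 10599 FPKM, with a gap of 0.929 of the range. In that library mitochondrial genes took 68.7% of the reads and the size factor was 0.167, against 0.643 to 2.31 in the others, and its read shares of both genes were within or below those of the other exercise libraries. Control 2 held 5.88 Myh1 reads per 1000 Myh4 reads, with a gap of 0.883 of the control range to the next library, and it had both the lowest Myh4 level and the highest Myh1 level of the control group. Causes were not tested.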

How the results depend on the processing

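The signs of Myl1, Myh1 and Myh4 held in all 20 alternatives. Genes past the threshold (1541) numbered 840 with no filter, 941 after quantile normalization, where 566 were higher and 375 lower and the median of all genes was -0.44, 603 with exercise 1 and 2 averaged, and 531 to 1890 without 1 library each (801 and 571 without control 3 or 4, 586, 602 and 531 without exercise 1, 2 or 3). With exercise 1 and 2 averaged and control 4 and exercise 3 left out, limma called 0 genes and voom 0, with 451 and 789 at an unadjusted p under 0.05, in a fit on fewer samples. Members past the threshold (2, Myl1 and Myh1) were 1 after quantile normalization, 1 with the replicate block, 1 with exercise 1 and 2 averaged, 0 in the fit on 5 samples and 1 to 2 without 1 library each, the remaining one being Myl1 wherever there was 1. Mylpf turned to 0.0153 when scaled to reads outside mitochondrial genes, to 0.0553 with exercise 1 and 2 averaged, to 0.24 in the fit on 5 samples, and lay between -0.48 and 0.0736 without 1 library each. The cause of these changes was not tested. Replicate numbers did not pair the samples: the deviations of same-numbered samples correlated at -0.0169 to 0.0393, 6 of 8 samples correlated best with their own number, and the replicate block gave 1059 calls. Thick filament partners called lower (4) were 2 after quantile normalization. Depth limits the low genes, since 1 read in exercise 4 stood for 3.47 FPKM in a gene of 1 kb, against 0.251 in control 4.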
